A study of Homo sapiens with 14 samples.

Results

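AcIm and NAIN3, applied to HEK293 cells at the same dose of 100 mM for the same 10 min, were compared nucleotide by nucleotide on the 18S and 28S ribosomal RNAs. The comparison takes every nucleotide that has an R-score for both reagents, which is 6867 of the 6939 nucleotides listed. Of these, 1833 are in 18S (nt 7 to 1839 of 1869) and 5034 are in 28S (nt 7 to 5040 of 5070), and each rRNA was kept apart. The R-score is the authors' measure of reactivity per nucleotide and runs from 0 to 1. HEK293 is a human embryonic kidney line that carries adenovirus DNA, and both groups come from this line. Per the labels each group had 2 biological replicates, with 18S and 28S rRNA cut from an agarose gel after the treatment. The series holds 14 samples in 7 groups, among them a group given 10% DMSO, the solvent, for 10 min, which was not analysed here.

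Both reagents are acyl imidazoles, which transfer an acyl group to the 2′-hydroxyl of the ribose. A nucleotide held in a helix, a tertiary contact or a protein site reacts poorly, and a flexible and reachable nucleotide reacts well. The adduct is then read where reverse transcriptase stops. AcIm (acetylimidazole) transfers a small acetyl group, and NAIN3 (NAI-N3) transfers a larger nicotinoyl group that carries an azide, a handle used to pull down modified RNA. The ribosome suits such a comparison because its RNA is folded, packed with proteins and abundant. 18S forms the small subunit, which reads the codon in its decoding centre, and 28S forms the large subunit, whose peptidyl transferase centre joins amino acids. Expansion segments are stretches that eukaryotic rRNAs have beyond the conserved core, most of them on the surface of the particle.

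The scores were deposited as means of the replicates, so no spread between replicates, no test and no error can be given for any difference below, and the read depth behind a score is unknown. Where a mean of 2 values between 0 and 1 alone fixes the order of the replicates, this is stated. The profile lengths, 1869 nt and 5070 nt, are those of the listed genes RNA18SN5 and RNA28SN5. A copy of the 18S gene of the same length, RNA18SN1, lies on chromosome 21 from 8436876 to 8438744 in GRCh38.p14. These loci encode structural RNA without a coding region. The listed 28S copies differ in length, from 5054 nt to 5077 nt. The scores form 1 profile per rRNA and do not separate the copies.

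AcIm scored higher than NAIN3 at most nucleotides, and the gap was wider in 18S. AcIm was the higher of the pair at 1621 nucleotides of 18S (88.4%) and NAIN3 at 194 (10.6%), with 18 equal. In 28S AcIm was higher at 3636 (72.2%) and NAIN3 at 1340 (26.6%), with 58 equal. The median difference, AcIm minus NAIN3, was 0.0415 in 18S and 0.019 in 28S. Differences were small at many nucleotides, since 49.9% of 18S and 58.2% of 28S lay within 0.05 of each other. How the score was scaled for each reagent is unknown, so the levels may not be directly comparable. With each reagent scaled to its 98th percentile, AcIm was higher at 86.2% of 18S and 71.8% of 28S nucleotides. On percentile ranks within each reagent and rRNA, AcIm was higher at 45.6% and 46.0%. Ranks are centred alike for both reagents, so a share near even is built into this scale.

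The ratio of AcIm to NAIN3 scores shrank up the scale, and near its top NAIN3 was the higher. In 18S the medians were 0.077 for AcIm and 0.0225 for NAIN3, a ratio of 3.42, and the 90th percentiles were 0.359 and 0.138. At the 99th percentile of 18S the scores were 0.886 for AcIm and 0.933 for NAIN3. In 28S the medians, 0.0655 for AcIm and 0.033 for NAIN3, had a ratio of 1.98, and the 99th percentiles were 0.913 and 0.964. NAIN3 therefore kept more of its summed score in few nucleotides. The highest 1% of nucleotides held 6.79% of the AcIm sum and 14.8% of the NAIN3 sum in 18S, and 7.70% against 10.7% in 28S.

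**Figure D1:**
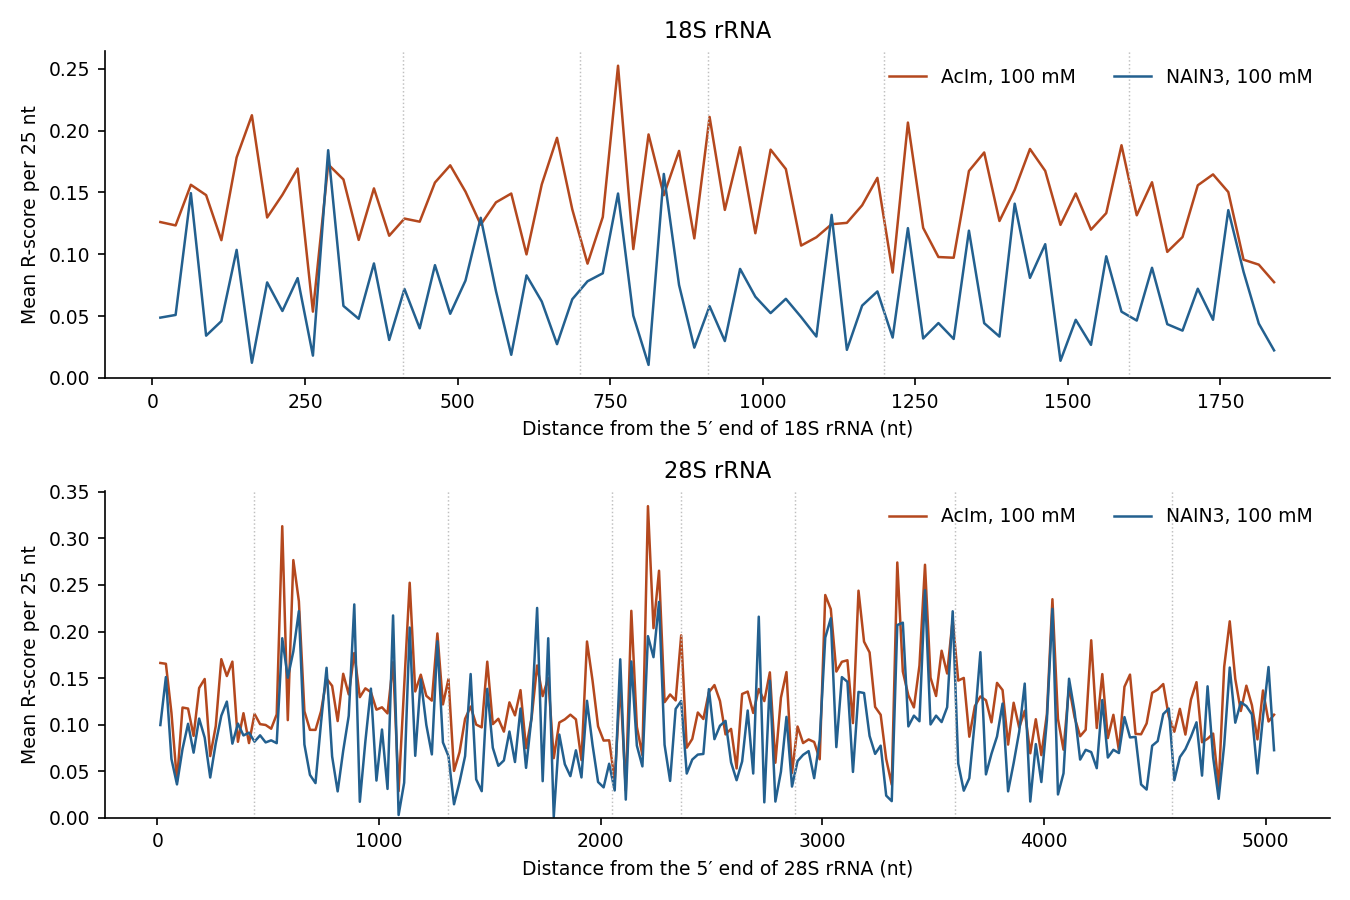
Mean R-score (0 to 1) of AcIm and NAIN3 in consecutive windows of 25 nt along 18S (top) and 28S (bottom), with position in nt from the 5′ end and dotted lines between the stretches described further on. The AcIm mean lies above the NAIN3 mean in 70 of 74 windows of 18S and 176 of 202 windows of 28S.

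The order of the nucleotides was shared in part. Spearman's rho between AcIm and NAIN3 was 0.58 over the 1833 nucleotides of 18S and 0.62 over the 5034 of 28S. These describe points on 1 molecule each, which within a reagent share the libraries and the depth along the molecule. The reagents had separate libraries, and any background of the assay may be common to both. In the 10% of 18S nucleotides with the highest AcIm scores, the AcIm median was 0.499 and the NAIN3 median 0.106. In the corresponding 10% of 28S the NAIN3 median was 0.246. Turned round, the nucleotides that NAIN3 scored highest had AcIm medians of 0.270 in 18S and 0.321 in 28S. The nucleotides highest with one reagent thus had raised medians with the other, in both directions and in both rRNAs.

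**Figure D2:**
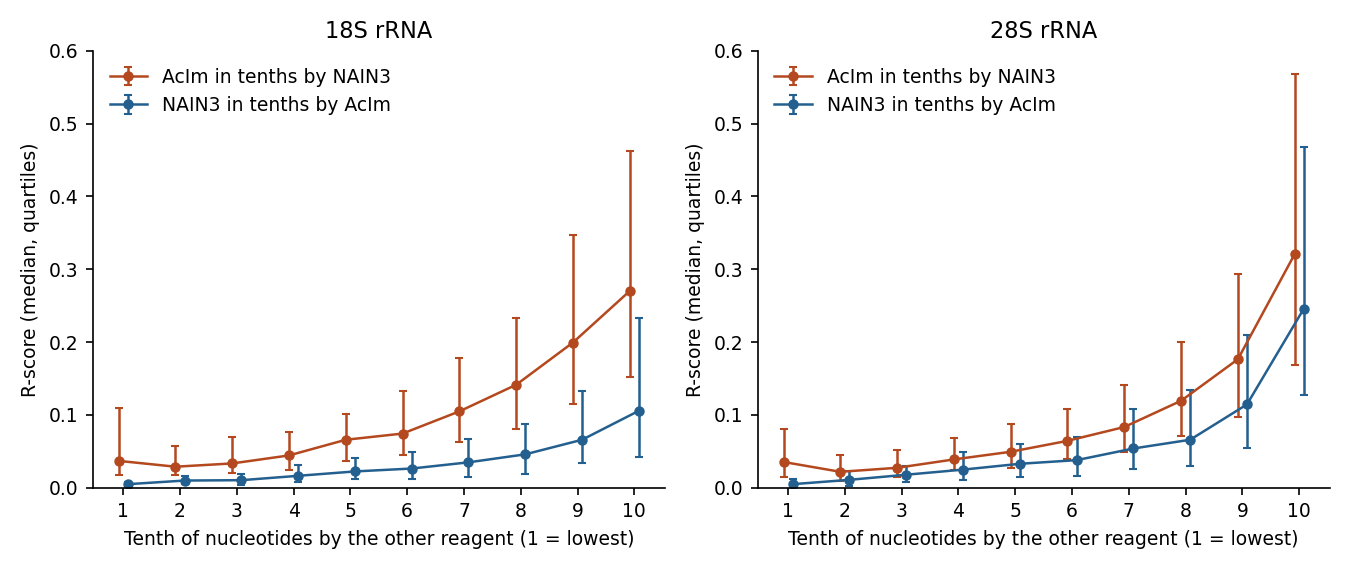
Median R-score of the other reagent, with quartiles, in each 10% of nucleotides ordered by AcIm score or by NAIN3 score, for 18S and 28S. NAIN3 reaches a median of 0.106 in the highest AcIm step of 18S and 0.246 in that of 28S.

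A nucleotide is called open here at a score of 0.25 or more and closed below 0.05. In 18S 306 nucleotides were open to AcIm and 100 to NAIN3, with 57 open to both, which is 18.6% of those open to AcIm and 57.0% of those open to NAIN3. Of those open to AcIm, 101 (33.0%) were closed to NAIN3, whereas of those open to NAIN3, 5 (5.0%) were closed to AcIm. Over all 18S nucleotides 35.3% were closed to AcIm and 72.0% to NAIN3, so a score closed to NAIN3 was the more common to begin with. In 28S 669 were open to AcIm and 470 to NAIN3, with 277 open to both (41.4% and 58.9%). There 89 nucleotides (13.3% of those open to AcIm) were open to AcIm and closed to NAIN3, and 13 (2.77% of those open to NAIN3) were open to NAIN3 and closed to AcIm. Over all 28S nucleotides 40.9% were closed to AcIm and 60.4% to NAIN3. About the same share of each rRNA was closed to both, 33.7% of 18S and 36.0% of 28S.

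A difference of at least 0.25 was taken as large, as a rule of size and not of significance. In 18S AcIm led by that much at 180 nucleotides, 9.82% of those compared, and NAIN3 at 38, which is 2.07%. In 28S AcIm led at 251 (4.99%) and NAIN3 at 145 (2.88%). AcIm thus made up 82.6% of the large differences in 18S and 63.4% in 28S. With each score replaced by its percentile rank within its reagent and rRNA and a limit of 25 rank points, the AcIm shares were 52.2% and 50.9%. Ranks within a reagent are centred alike for both, so a split near even is built into this scale.

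At a smaller set of nucleotides the means alone place both replicates of one reagent above both of the other. AcIm was the higher in 45 such nucleotides of 18S (2.45%) and NAIN3 in 19 (1.04%). In 28S AcIm was the higher in 55 (1.09%) and NAIN3 in 43 (0.854%). This is the case wherever the 2 means differ by more than 0.5. The 10 largest leads in each direction and rRNA, all of 0.6505 or more, therefore belong to this set by their size alone.

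The 3 widest AcIm leads in 18S lay in the head, the 5′ domain and the shoulder of the small subunit. At nt 1560 the score was 0.9455 with AcIm and 0.059 with NAIN3. At nt 367 it was 1 with AcIm and 0.1175 with NAIN3, and at nt 448 it was 0.969 with AcIm and 0.105 with NAIN3. The other 7 were nt 160, 583, 485, 1375, 939, 1444 and 1023. Over the 10 the NAIN3 score lay between 0.0225 and 0.224, so none was at 0 with NAIN3, and 4 were at 1 with AcIm. In ES6S, the largest expansion segment of 18S, nt 812 scored 0.7035 with AcIm and 0 with NAIN3. In the stretch with the P site and decoding centre nt 1780 scored 0.844 with AcIm and 0.1465 with NAIN3. Its 3′ neighbour, nt 1781, had the widest lead the other way in that stretch, 0.308 with AcIm and 0.92 with NAIN3.

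The 28S rRNA held the single nucleotide at opposite ends of the scale. Nt 914, in ES7L, the largest expansion segment of 28S, scored 1 with AcIm and 0 with NAIN3. Nt 2267 followed with 1 for AcIm and 0.0395 for NAIN3. Nt 2204 scored 0.7765 with AcIm and 0 with NAIN3, in a row of 4 nucleotides, nt 2201 to 2204, that NAIN3 left at 0 and AcIm scored from 0.1615 to 0.7765. The other 7 of the 10 widest were nt 4851, 208, 4978, 4909, 120, 1321 and 1929. Among these, nt 120, 1321 and 1929 each lie directly 5′ of a nucleotide that AcIm scored at 1. Nt 121 and nt 1322 were at 1 with both reagents, and nt 1930 had 1 with AcIm and 0.637 with NAIN3. Next to the methylated adenosine nt 1322, nt 1321 itself had 0.954 with AcIm and 0.1825 with NAIN3.

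NAIN3 leads differed in their setting. In 18S the widest was nt 607, with 0.134 for AcIm and 0.993 for NAIN3. Its 5′ neighbour, nt 606, scored 0.615 with AcIm and 0.365 with NAIN3. Nt 361 had 0.0635 with AcIm and 0.867 with NAIN3, directly after nt 360, which was at 1 with both reagents. Nt 74 and 75 stood side by side at 0.1675 and 0.1785 with AcIm, and both at 1 with NAIN3. The remaining 6 were nt 285, 1348, 773, 1114, 1403 and 1421, and AcIm scored from 0.0635 to 0.3235 over the 10.

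In 28S, too, some NAIN3 leads directly followed a nucleotide that AcIm scored high. Nt 2660, in domain III, had 0.092 with AcIm and 0.9745 with NAIN3. The nucleotide before it, nt 2659, had 1 with AcIm and 0.5325 with NAIN3. Nt 1182 in ES7L had 0.1845 with AcIm and 1 with NAIN3, after nt 1181 with 0.624 and 0.258. The other 8 were nt 2705, 897, 5025, 2984, 3713, 3252, 4757 and 1821. In each rRNA 4 of the 10 widest NAIN3 leads had a 5′ neighbour with an AcIm score of at least 0.5, a level that 5.02% of 18S and 4.63% of 28S nucleotides reached. On the 3′ side none of these 10 in 28S and 1 of 10 in 18S had such a neighbour. Not all of these 5′ neighbours favoured AcIm, since nt 772 and 1420 of 18S and nt 896 of 28S were higher with NAIN3. NAIN3 itself reached 0.5 on the 5′ neighbour of 5 of 10 leads in 18S and 4 of 10 in 28S. Over all nucleotides 2.73% of 18S and 3.62% of 28S reached that level with NAIN3. These counts were chosen after the values were seen.

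Over all large leads the 2 reagents differed in what surrounded the site. Around the 180 AcIm leads of 18S the median AcIm score was 0.460 at the site, 0.105 on the 5′ neighbour and 0.0905 on the 3′ neighbour. It was higher again 3 nt away, at 0.130 on the 5′ side and 0.133 on the 3′ side. There 29.4% and 30.6% of nucleotides were open to AcIm, against 16.7% of all 18S nucleotides. Around the 38 NAIN3 leads of 18S the median NAIN3 score was 0.679 at the site, 0.306 on the 5′ neighbour and 0.146 on the 3′ neighbour. The 5′ neighbour was open to NAIN3 in 55.3% of them, against 5.46% of all. In 28S the 5′ neighbour of the 145 NAIN3 leads had a median of 0.243 and was open to NAIN3 in 48.3%, against 9.34% of all, and the 3′ neighbour had a median of 0.173. Around AcIm leads of 28S the AcIm medians were 0.101 on each direct neighbour, against 0.0655 over all. Both reagents thus stayed above their own overall medians next to their leads, and NAIN3 did so most on the 5′ side. The leads were chosen on the score at the site, so the value there is a description.

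**Figure D3:**
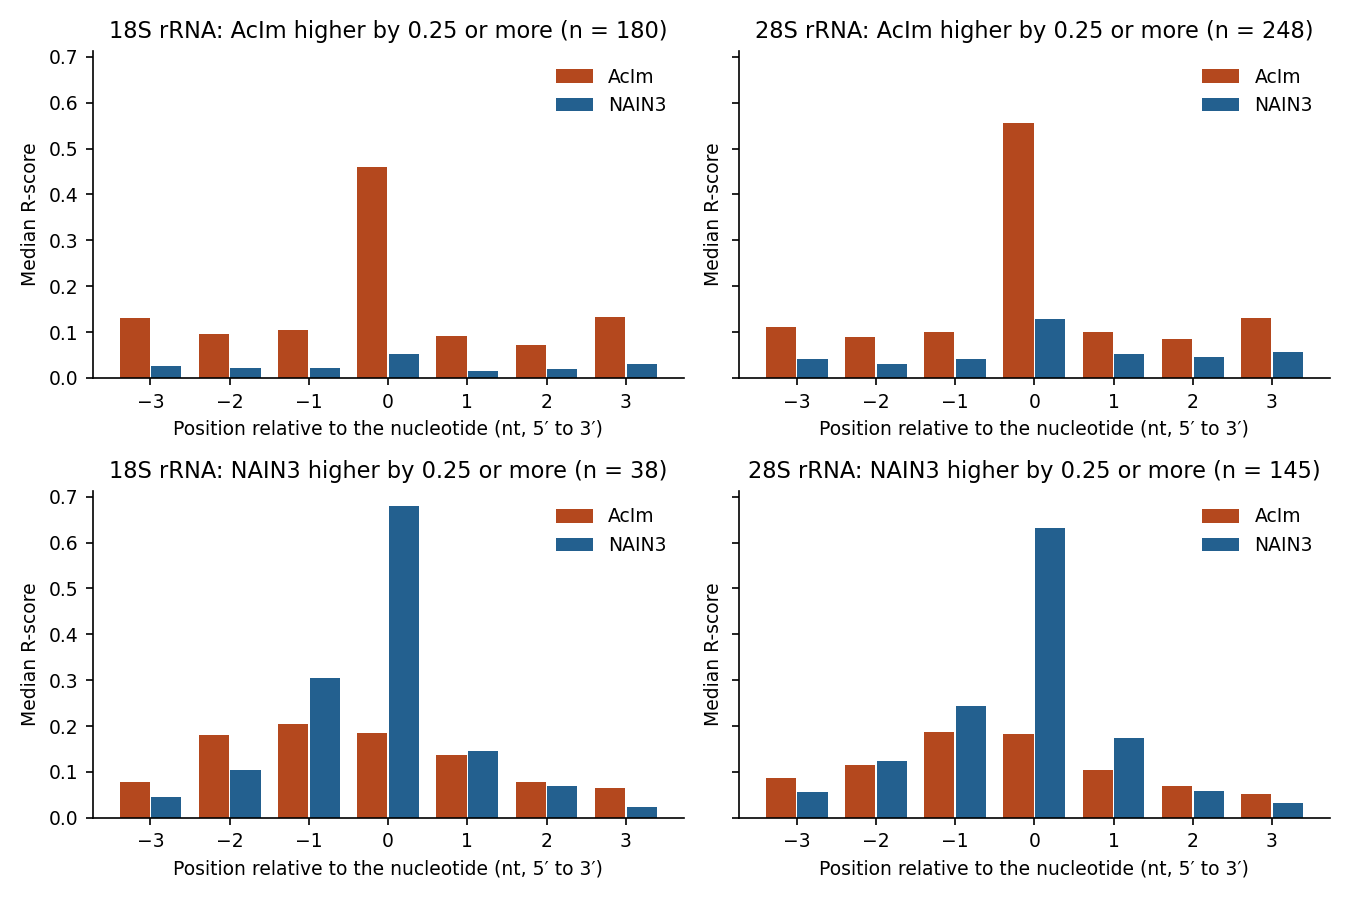
Median R-score of AcIm and NAIN3 from 3 nt on the 5′ side to 3 nt on the 3′ side (position in nt) of large AcIm leads, 180 in 18S and 248 in 28S with 3 near the ends left out, and of large NAIN3 leads, 38 in 18S and 145 in 28S. In 18S NAIN3 is 0.306 on the 5′ neighbour of its leads, and AcIm is 0.130 and 0.133 at 3 nt from its leads.

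Over whole molecules the reagents differed most between direct neighbours. The NAIN3 profile ran on from a nucleotide to its neighbour, with a rho of 0.47 at 1 nt in 18S and 0.52 in 28S. For AcIm these were 0.16 in 18S and 0.22 in 28S. At 2 nt rho was 0.10 for AcIm and 0.31 for NAIN3 in 18S. AcIm then had a local peak at 3 nt, with a rho of 0.23 in 18S and 0.26 in 28S, and was -0.00 and 0.01 at 4 nt. NAIN3 had 0.30 and 0.28 at 3 nt, and 0.18 and 0.15 at 4 nt. With Pearson's r the 1-nt values in 18S were 0.08 for AcIm and 0.44 for NAIN3. At 3 nt the order turned with Pearson's r, to 0.16 for AcIm and 0.11 for NAIN3 in 18S and 0.19 and 0.15 in 28S. Within each rRNA the neighbours share libraries and depth, and these values are a description across nucleotides.

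**Figure D4:**
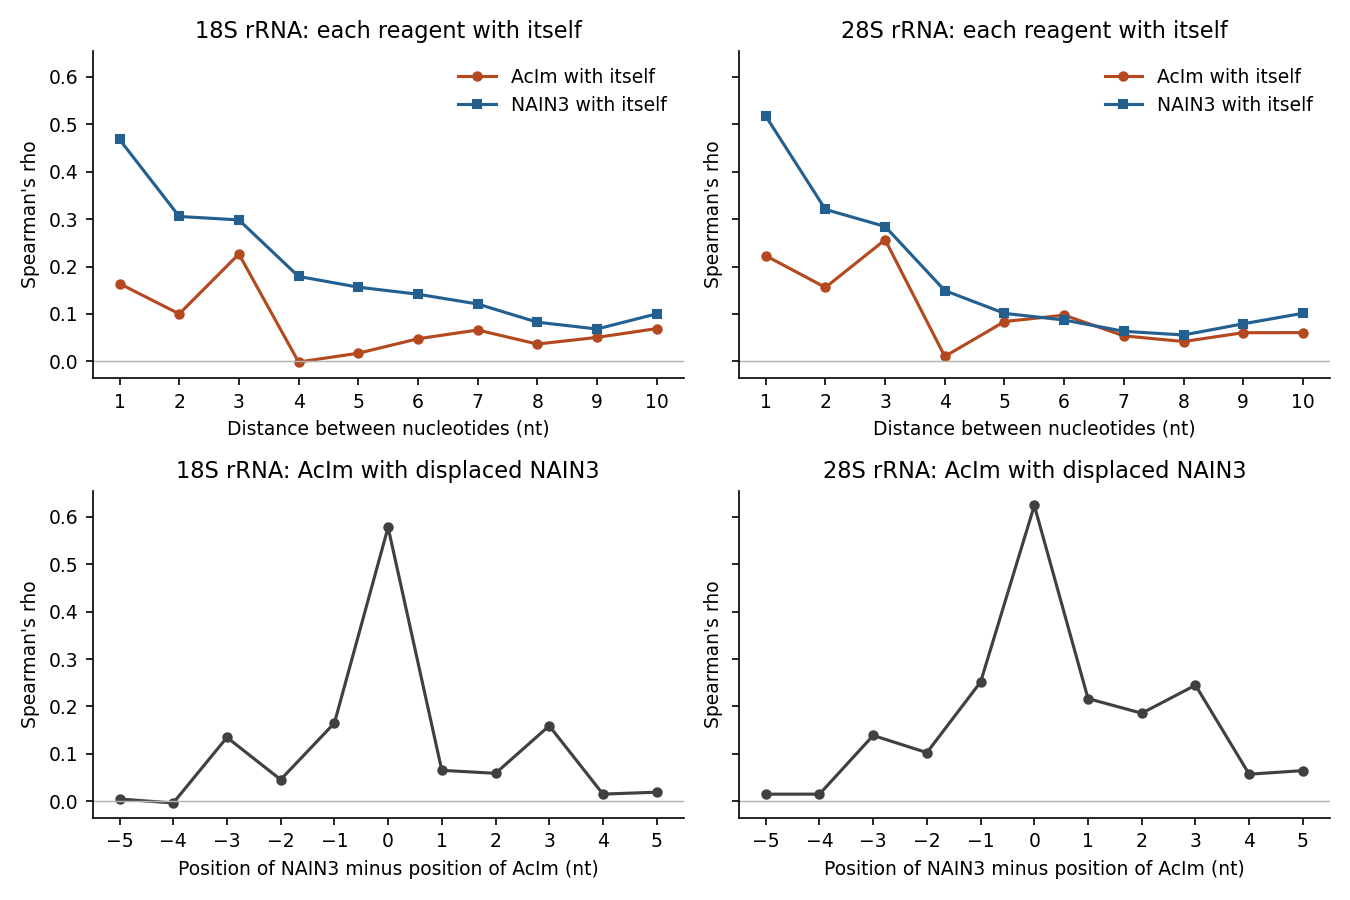
Spearman's rho between the scores of nucleotides 1 to 10 nt apart within the AcIm profile and within the NAIN3 profile (top), and between AcIm and NAIN3 moved by up to 5 nt (bottom), for 18S and 28S. NAIN3 starts at 0.47 in 18S and 0.52 in 28S, and AcIm has a local peak at 3 nt (0.23 in 18S, 0.26 in 28S).

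Most peaks fell on the same nucleotide. With NAIN3 moved by -5 to +5 nt against AcIm, rho was highest at 0 nt in both rRNAs. In 18S it was 0.16 with NAIN3 taken 1 nt on the 5′ side of AcIm and 0.07 with NAIN3 1 nt on the 3′ side, and in 28S 0.25 and 0.22. With Pearson's r the order of the sides turned in 18S, to 0.11 on the 5′ side and 0.17 on the 3′ side. A local peak, a nucleotide above both neighbours, occurred at 579 positions with AcIm and 541 with NAIN3 in 18S. Of these 375 were shared, 64.8% of the AcIm peaks and 69.3% of the NAIN3 peaks. Of all inner positions of 18S 31.6% were AcIm peaks and 29.5% NAIN3 peaks. In 28S 962 were shared, 59.6% of 1613 AcIm peaks and 66.8% of 1440 NAIN3 peaks, where 32.1% of positions were AcIm peaks and 28.6% NAIN3 peaks. Among the rest, a NAIN3 peak lay 1 nt 3′ of an AcIm peak at 45 positions of 18S and 1 nt 5′ of one at 84. In 28S these were 185 and 216. In 18S a displaced NAIN3 peak was thus more often on the 5′ side.

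The tops of the profiles overlapped. In 18S AcIm scored 1 at 14 nucleotides and NAIN3 at 16, and both did at 8, nt 103, 360, 541, 554, 628, 1247, 1248 and 1767. In 28S AcIm scored 1 at 30 and NAIN3 at 41, and both did at 13, among them nt 121, 566, 1135, 1254, 1322, 1409, 1766, 2206, 3352 and 3456. Nt 1248 of 18S is a hypermodified uridine near the P site and nt 1322 of 28S a methylated adenosine, and both modifications block base pairing and are known to stop reverse transcriptase. Stops without a reagent, as the DMSO group would show them, were not analysed here.

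NAIN3 left 159 nucleotides of 18S and 512 of 28S at exactly 0, against 14 and 38 for AcIm, and those were not the nucleotides lowest in AcIm. In 18S the AcIm median was 0.048 where NAIN3 was 0, and 0.029 where NAIN3 was above 0 and at most 0.01. Of the first set 10.7% were open to AcIm, and of the second 2.70%. In 28S the AcIm medians were 0.0355 and 0.024, and 4.49% and 1.47% were open. AcIm was thus higher where NAIN3 was 0 than where NAIN3 was just above it. The depth behind a score of 0 is unknown.

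Some zeros of NAIN3 came in rows. The 159 zeros of 18S formed 84 separate rows, of which 51 were a single nucleotide and 6 were 5 nt or longer. The 512 zeros of 28S formed 283, of which 179 were a single nucleotide and 16 were 5 nt or longer. The longest in 18S ran from nt 113 to 125, 13 nt, where AcIm stayed between 0 and 0.0975. The next, nt 147 to 152 and nt 576 to 581, reached 0.375 and 0.1595 with AcIm. In 28S the longest ran from nt 1775 to 1785 (11 nt), followed by nt 4065 to 4074 (10 nt) and nt 1079 to 1087 (9 nt). AcIm reached 0.2755 in the row at nt 4065 to 4074, so a nucleotide open to AcIm lay inside it.

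Unbroken runs with AcIm above NAIN3 were long, where AcIm was higher at 88.4% of 18S and 72.2% of 28S nucleotides. Shares of this size alone favour long AcIm runs and short NAIN3 runs. In 18S the longest was nt 1490 to 1552 in the head (63 nt), followed by nt 629 to 688 and nt 1659 to 1718 (60 nt each). In 28S they were nt 1771 to 1807 (37 nt), nt 1719 to 1751 (33 nt) and nt 2985 to 3014 (30 nt). Runs with NAIN3 above AcIm were short, the longest being nt 281 to 287 (7 nt), nt 834 to 839 (6 nt) and nt 72 to 76 (5 nt) in 18S. In nt 281 to 287 the median was 0.21 with AcIm and 0.6595 with NAIN3. In 28S the longest were nt 1703 to 1712 (10 nt), nt 2090 to 2098 and nt 3015 to 3023 (9 nt each), and the last of these begins where the 30-nt AcIm run ends. Over windows of 25 nt the widest AcIm lead in 18S was nt 151 to 175, with means of 0.212 for AcIm and 0.0123 for NAIN3. The widest NAIN3 lead was nt 2701 to 2725 of 28S, with means of 0.138 for AcIm and 0.216 for NAIN3.

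By Spearman's rho the match of the profiles differed between stretches of 18S. Spearman's rho was 0.45 in the 5′ domain start (404 nt) and 0.45 in ES6S (210 nt), 0.52 in the shoulder, 0.64 in the head and 0.70 in the platform. It was 0.80 in the stretch with the P site and decoding centre (240 nt). Pearson's r differed less over these stretches, from 0.44 in ES6S to 0.55 in the stretch with the P site. The share of nucleotides with NAIN3 at 0 was 21.3% in the 5′ domain start, 10.95% in ES6S, 0.694% in the platform and 2.92% in the last stretch, and the lowest values of rho stood in the stretches with the most zeros. The part of the zeros in this was not tested. In 28S rho lay between 0.59, in domains IV and V, and 0.69, in domain I, and NAIN3 was at 0 in 16.8% of ES7L. Pearson's r in 28S had a wider range, from 0.43 in domain VI to 0.69 in the core of domain II, with 0.69 in ES7L. The contrast between stretches thus depends on the measure. The AcIm median was higher in 6 of 6 stretches of 18S and 8 of 8 of 28S. On mean percentile rank AcIm was higher in 33.3% of the 18S and 37.5% of the 28S stretches. Ranks are centred alike for both reagents, so neither can lead in every stretch on this scale.

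**Figure D5:**
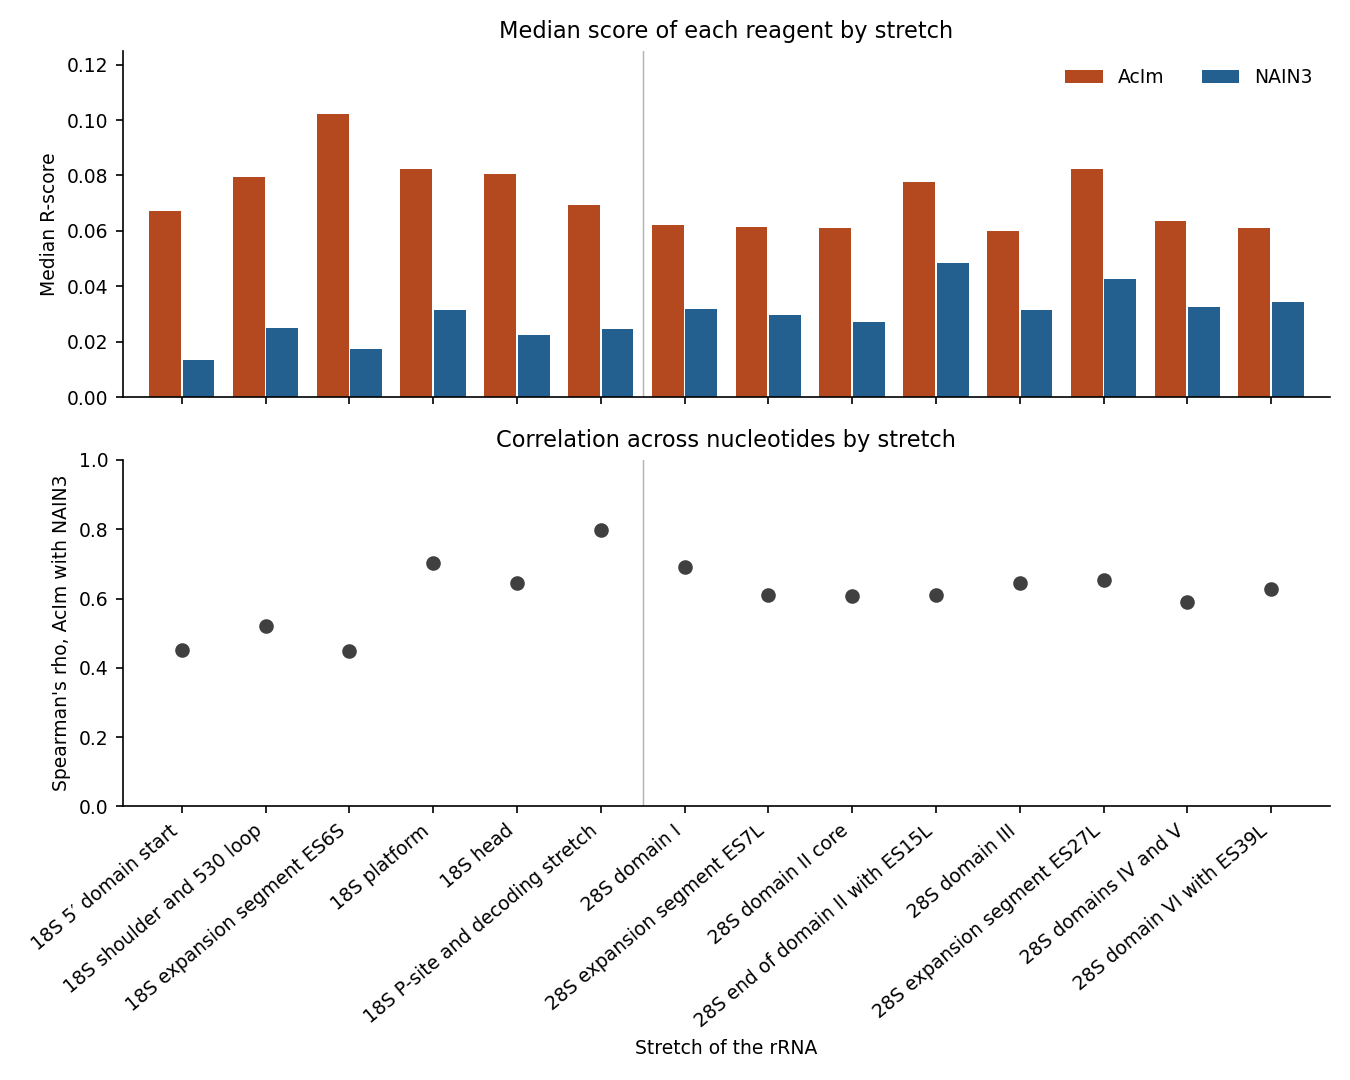
Top, median R-score of AcIm and NAIN3 in 6 stretches of 18S and 8 of 28S; bottom, Spearman's rho between the reagents over the nucleotides of each stretch. Spearman's rho ranges from 0.45 to 0.80 in 18S and from 0.59 to 0.69 in 28S.

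In the small subunit the expansion segment ES6S differed from the rest of 18S in opposite directions for the reagents by median, but not by mean. ES6S had medians of 0.102 for AcIm and 0.0175 for NAIN3, against 0.0755 and 0.0225 over the rest of 18S. AcIm was thus above and NAIN3 below its own median elsewhere, and on mean percentile ranks too (53.3 against 49.6 for AcIm, 47.9 against 50.3 for NAIN3). By mean score both were higher in ES6S, AcIm at 0.150 against 0.142 and NAIN3 at 0.077 against 0.0651. The NAIN3 median hid a spread, since 8.57% of ES6S was open to NAIN3 against 5.05% of the rest, while the AcIm shares were 16.7% and 16.7%. In 28S ES7L and ES27L together had medians of 0.0715 for AcIm and 0.035 for NAIN3, against 0.063 and 0.032 over the rest. Open shares there were 17.0% for AcIm and 12.3% for NAIN3, against 11.6% and 7.97%. The segments differed, since ES27L had medians of 0.0825 for AcIm and 0.0428 for NAIN3, above the rest, and ES7L had 0.0615 and 0.0297, slightly below it. The rest of 28S is not the conserved core alone, because it holds the stretches with ES15L and ES39L. The stretch with ES15L had medians of 0.0775 for AcIm and 0.048 for NAIN3, and the stretch with ES39L 0.061 and 0.0345.

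Modified nucleotides were listed from textbook knowledge by their position in the mature human molecules, and their bases were not checked against a sequence. A 2′-O-methylated ribose has no free 2′-hydroxyl to acylate. The 41 such sites of 18S had medians of 0.077 for AcIm and 0.018 for NAIN3, against 0.077 and 0.0225 over all 18S nucleotides. AcIm was higher at 38 of them, as it was at 88.4% of all 18S nucleotides, while on percentile ranks their median difference was -3.96 points, against -2.29 over all 18S nucleotides. Of the 41, 5 were open to AcIm and none to NAIN3, against 16.7% and 5.46% of all, so both counts are near the common share. The widest AcIm lead was nt 172 (0.4765 with AcIm and 0 with NAIN3). The widest NAIN3 lead was nt 512, with 0.124 for AcIm and 0.165 for NAIN3. In 28S the 63 sites had medians of 0.0565 and 0.027, against 0.0655 and 0.033, and AcIm was higher at 49, as at 72.2% of all 28S nucleotides, with a median rank difference of -1.58 points against -1.50 over all. Of the 63, 4 were open to AcIm and 3 to NAIN3, below the 13.3% and 9.34% of all 28S nucleotides. To AcIm 29 were closed and to NAIN3 44, against 40.9% and 60.4% of all. The widest AcIm lead in 28S was nt 4306, at 0.271 with AcIm and 0.047 with NAIN3, and the widest NAIN3 lead nt 3627, at 0.046 and 0.1525.

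Pseudouridine, an isomer of uridine that stabilises stacking, gave the widest median difference in favour of AcIm among the lists in 18S. The 42 sites had medians of 0.0728 for AcIm and 0.011 for NAIN3, against 0.077 and 0.0225 over all 18S nucleotides, and their median difference was 0.0548 against 0.0415. AcIm was higher at 40, where it was higher at 88.4% of all. On percentile ranks the median difference kept its sign at 1.32 points, against -2.29 over all 18S nucleotides. None was open to NAIN3 and 40 were closed to it, whereas 5 were open and 19 closed to AcIm. Over all 18S nucleotides 5.46% were open and 72.0% closed to NAIN3, and 16.7% open and 35.3% closed to AcIm. Nt 822 had 0.48 with AcIm and 0.0225 with NAIN3, and nt 918 had 0.46 and 0.044. Nt 1347 went the other way with 0.07 and 0.1305. With each site moved by 1 nt the median difference was wider, 0.071 on the 5′ side and 0.0745 on the 3′ side. The gap was thus not particular to the listed positions.

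Base modifications at other positions gave mixed results. In 18S the acetylated cytidine nt 1337 had 0.046 with AcIm and 0.0535 with NAIN3, and the methylated adenosine nt 1832 had 0.017 and 0.005. The 7-methylguanosine nt 1639, which touches the tRNA in the P site, had 0.2715 and 0.177. In 28S the methylated uridine nt 4530 was high with both, at 0.8515 with AcIm and 0.5405 with NAIN3. The methylated cytidines nt 3782 (0.091 and 0.024) and nt 4447 (0.0035 and 0.012) and the methylated adenosine nt 4220 (0.0655 and 0.03) were low.

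The functional centres held nucleotides with either reagent higher. Of the decoding-centre nucleotides that inspect the codon, nt 1825 had 0.0545 with AcIm and 0.495 with NAIN3, the widest gap on the list. Its replicates could lie anywhere up to 0.109 for AcIm and 0.99 for NAIN3, so they may overlap. Nt 626 had 0.067 with AcIm and 0.195 with NAIN3, and nt 1824 had 0.166 and 0.1385. The P-site nucleotide nt 1701 had 0.0815 and 0.0525. Over the 6 listed nucleotides of 18S the median was 0.124 for AcIm and 0.186 for NAIN3, and AcIm was the higher at 3 and NAIN3 at 2, where AcIm was the higher at 88.4% of all 18S nucleotides. The median of the paired differences was 0.0138 and had the opposite sign to the difference of these medians, and on ranks it was -19.2 points.

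In the peptidyl transferase centre and A loop of 28S NAIN3 was the higher at 5 of 7 nucleotides, and at 26.6% of all 28S nucleotides. Nt 4397 had 0.0565 with AcIm and 0.107 with NAIN3, nt 4398 had 0.009 and 0.043, and nt 4548 had 0.076 and 0.154. Nt 4452 (0.0035 and 0.016) and nt 4498 of the A loop (0.0125 and 0.0185) were near 0 with both. AcIm was higher at nt 4499 (0.116 and 0.0835) and at nt 4531, which was high with both (0.6165 and 0.454). The median difference over the 7 was -0.0125, against 0.019 over all 28S nucleotides. It turned positive when each site was moved by 1 nt, to 0.0605 on the 5′ side and 0.004 on the 3′ side. The moved sets still hold listed sites, because nt 4397 and 4398 and nt 4498 and 4499 are adjacent. They therefore cannot show whether the difference is particular to these positions. At none of the 7 do the means fix the order of the replicates.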

How the data were processed

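The authors deposited 1 score per nucleotide and reagent, titled a mean R-score, from libraries of gel-purified rRNA. Per the labels each group had 2 biological replicates. The submitters' processing notes name Bowtie2 and GRCh38, with no version. How the score was calculated, how DMSO libraries entered it and which depth filter applied is not given in the sources used here, and the depth is unknown. All scores fell on steps of 0.0005. The 2 columns of the other reagent were not used.

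From these scores, levels, differences (AcIm minus NAIN3), Spearman's rho, Pearson's r, percentile ranks, runs, local peaks, stretches and site lists were computed with Python 3.11.15 (pandas 2.3.3, numpy 2.4.6, matplotlib 3.10.9 and scipy 1.17.1). The single pair of reagents was compared with no test, since the columns are means and nucleotides are not replicates. The bound on replicates uses that a mean m of 2 values within 0 to 1 places each between 2m − 1 and 2m. The counts, correlations and displacements were tested on simulated data. Nucleotides, lists and stretches were chosen with earlier results of these data known. Named nucleotides are the 10 widest leads in each direction and the 10 highest shared scores per rRNA, the widest leads of each stretch, the 3 longest runs of each kind, all functional and base-modified sites, the widest leads of each other list and neighbours within 3 nt. Pseudouridines of 28S were left out.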

Additional observations from a re-analysis of the deposited data

How the results depend on the processing

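No paired analysis was possible because the deposited columns are means over the replicates and carry no replicate numbers; leaving out a replicate was not possible for the same reason. Of 155 alternative values for 45 results, 112 kept their direction and moved by no more than 1.5 times (less than 0.1 for a correlation), 37 moved further and 6 turned sign. For expansion segments and site lists on percentile ranks only the direction was read, because the scale differs. The correlation between reagents over each rRNA was among the 112 under 5-nt means, Pearson's r, and with 50 nt at each end, scores of 0 or scores of 1 left out. With a limit of 0.1 the large differences numbered 507 for AcIm and 69 for NAIN3 in 18S, and 882 and 348 in 28S. With 0.5 they numbered 45 and 19, and 55 and 43, the same counts as for the replicate bound, which rests on that difference. Scaling each reagent to its 98th percentile gave 393 AcIm leads in 28S, and ranks gave 242 NAIN3 leads in 18S and 692 AcIm and 668 NAIN3 leads in 28S. Without scores of 1 the replicate bound left 11 NAIN3 nucleotides in 18S.

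With open set at 0.5 and closed below 0.1, the 18S counts were 20 open to both, 31 open to AcIm and closed to NAIN3, 3 the reverse and 1013 closed to both, and the 28S counts were 82 open to both, 32 open to AcIm and closed to NAIN3, and 2899 closed to both. With open as the top 20% and closed as the lowest 50%, 18S had 197, 60 and 47 in the first 3 classes, and 28S had 612 open to both and 100 open to NAIN3 and closed to AcIm. On ranks, where neither reagent can lead in every stretch, AcIm was higher in 33.3% of 18S and 37.5% of 28S stretches. The lowest rho in windows of 200 nt of 28S was 0.47. Without scores of 0, an alternative added after seeing the data, the NAIN3 excess in 28S expansion segments was 0.006. Allowing NAIN3 up to 0.005 made the longest 28S row 23 nt.

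The site lists also moved. Moved by 1 nt to the 5′ and the 3′ side, the median differences were 0.0195 and 0.049 for base-modified 18S sites, 0.256 and 0.163 for those of 28S, and 0.0605 and 0.004, both now positive, for functional 28S sites. Moved to the 3′ side they were 0.081 for functional and 0.0485 for ribose-methylated 18S sites, and moved to the 5′ side 0.0015 for ribose-methylated 28S sites. On ranks, where all nucleotides have a median difference of -2.29 in 18S and -1.50 in 28S, the sign turned for base-modified (-7.60), functional (-19.2) and ribose-methylated (-3.96) 18S sites and ribose-methylated 28S sites (-1.58). The cause of these shifts was not tested. The unknown depth and the missing spread between replicates limit every value given.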
